A study of Homo sapiens with 4 samples.

Results

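The 9 genes described here were MDM2, MDM4, CDKN1A, BBC3, BAX, PMAIP1, GADD45A, SESN1 and TP53I3, which are regulators or transcriptional targets of the tumour suppressor p53. They were found by name, through the RefSeq accession that each array probe carries, and not by any measured value. The genes were nevertheless chosen with earlier results of these data known. They took up 42 of the 71998 probes on the array, in 14 transcript targets of 3 probes each, and were 9 of 17214 named genes. The gene for p53 itself was not among them and is not analysed here.

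The arrays were hybridised with RNA from HEK293 cells, a human embryonic kidney line transformed with adenovirus DNA that is widely used to express cloned receptors. All 4 samples were biological replicates of the same untreated cells, grown in serum-containing medium on separate plates and taken at confluence. There was no second condition, and no sample in which p53 was removed or activated. The arrays therefore give the level of message under basal conditions and no response to p53.

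p53 is a transcription factor that accumulates after DNA damage and other stress, and that switches on genes for cell cycle arrest, apoptosis, DNA repair and metabolic control. MDM2, an E3 ubiquitin ligase, marks p53 for degradation and is itself a p53 target, which closes a negative feedback loop, and its relative MDM4 binds p53 and blocks its activity. In cells transformed by adenovirus, early viral proteins both stabilise p53 and hold down its activation of target genes. Those viral genes are not analysed here.

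The response elements that p53 binds consist of a pair of half-sites of 10 letters each. The half-site consensus reads the same on both strands, so a single scan covered both. RefSeq promoter windows of 300 bases, from 250 before to 50 after a start of transcription, were scanned for the 20-letter p53 consensus with no spacer. Windows were present for 8 of the 9 genes, and GADD45A was the exception. At most 3 mismatches were allowed, a limit that 5.20% of all 35116 windows met, and 0.649% had at most 2. Matches were found before the downstream starts of MDM2, at positions 68809017 and 68809024, before a start of SESN1 and before PMAIP1. Those of MDM2 and SESN1 are shown because each gene has more than 1 start, with a match at only some of them. The PMAIP1 match is shown as the only other one found. The stretches below are from build GRCh38.p14, read along the gene's strand, with the 20-letter matches in capitals.
MDM2, chr12:68808913-68808990, plus strand: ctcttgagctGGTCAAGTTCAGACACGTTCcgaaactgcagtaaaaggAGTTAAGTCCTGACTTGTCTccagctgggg
SESN1, chr6:109009008-109009047, minus strand: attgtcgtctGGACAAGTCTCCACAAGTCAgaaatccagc
PMAIP1, chr18:59899801-59899840, plus strand: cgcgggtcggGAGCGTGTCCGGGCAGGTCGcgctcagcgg

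The MDM2 stretch held 2 matches. The first had 2 mismatches and ended 75 bases before the start at position 68809017, and the second had 3 mismatches and ended 37 bases before it. The windows of the upstream MDM2 starts, at positions 68808172 and 68808177, held no sequence with fewer than 5 mismatches. The SESN1 match had 3 mismatches and ended 30 bases before the start at position 109008988, while the other 2 SESN1 windows had 5 mismatches at best. The PMAIP1 match also had 3 and ended 166 bases before the start. In the windows of MDM4, CDKN1A, BBC3 and TP53I3 the best sequence had 5 mismatches, and in that of BAX it had 4, which says only that these letters are not in those windows. The array probes do not show which start a transcript came from.

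The study judged whether a gene was expressed by a baseline. From the log2 value of every gene the study took away, array by array, the mean of a set of seminal proteins that the line should not make, plus 2 of their SDs. Here 10 such genes were matched. A gene with a mean distance above 0 over the 4 arrays was called detected. For replicates 1 to 4 the baseline was 9.47, 9.94, 10.69 and 10.32 log2 units. Of 7 genes taken as markers of the line, 5 were detected (52.7% of all genes) and 4 lay above the baseline on every array (45.0%). Among these 4 were VIM at 5.26 ± 0.64, CDH2 at 4.59 ± 0.73 and NEFL at 4.01 ± 0.56 log2 units (SD, n = 4 for each). PAX2 and LHX1 lay below the baseline on all 4 arrays. Of 9 markers of other lineages, 8 lay below it on all 4 arrays (6854 of 17214 genes did), with CD68 as the exception at 1.67. The arrays were not alike in every respect. NEFM, a neurofilament gene, read 13.57 and 13.09 on replicates 1 and 3 but 8.32 and 8.08 on replicates 2 and 4. It was counted among the 5 detected markers, at 0.66 ± 3.08 (SD, n = 4), though its distances on replicates 2 and 4 were -1.62 and -2.24.

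All 9 genes were detected, against 52.7% of all genes. All 9 were above the baseline on every single array too (45.0% of all genes). They also passed a one-sided limma test against the baseline at an adjusted p of 0.05 (45.9% of all genes). That test gave every gene the same standard error of 0.351. Its p therefore follows the mean distance alone and takes no account of the SD printed beside it. Their mean distances ran from 1.35 for TP53I3 to 3.61 for CDKN1A, with a median of 2.68 log2 units, beside a median of 0.26 over all genes. As a second background, 364 olfactory receptor genes were counted on each array. None read as high as any of the 9 on any array, apart from 1 on replicate 2 that reached the level of BBC3. Every probe has its own affinity, so distances of different genes are no measure of which transcript was the more abundant.

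**Figure D1:**
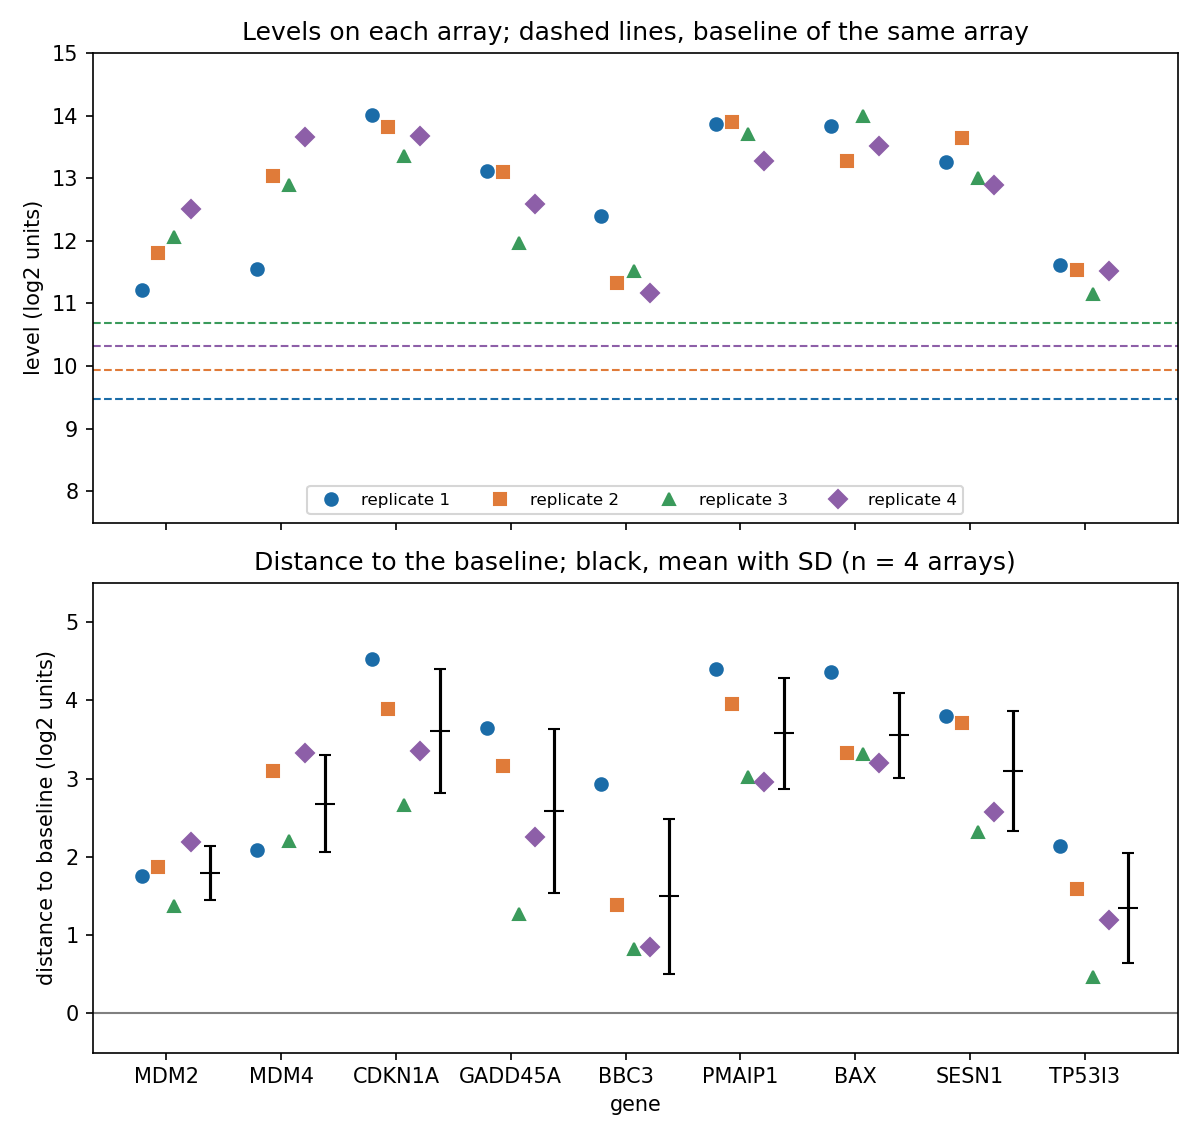
The upper panel plots the log2 level of each gene on each array, with the baseline of the same array as a dashed line of the same colour. The lower panel plots the distance to that baseline, with the mean and SD over 4 arrays in black; all 36 distances lie above 0, the lowest being that of TP53I3 on replicate 3 at 0.47.

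Of the negative regulators, MDM2 read 11.22, 11.81, 12.06 and 12.51 log2 units on replicates 1 to 4. Replicate 1 was the lowest and replicate 4 the highest, over a range of 1.29. The distance to the baseline was 1.79 ± 0.34 log2 units (SD, n = 4, limma adjusted p = 4.9e-07). The 3 probes of MDM2 stood at mean distances of 2.63, 1.25 and 0.66. The third, P01598, fell to 0.86 below the baseline on replicate 3. Without the first, P00922, MDM2 stood at 1.05 (limma adjusted p = 0.0032).

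MDM4 read 11.56, 13.04, 12.90 and 13.65 log2 units on replicates 1 to 4. Its level on replicate 1 was the lowest, the others lying between 12.90 and 13.65. The range of 2.10 was the widest of the 9 and exceeded that of 94.5% of all genes. All 3 of its probes were lowest on replicate 1, at 11.85, 11.63 and 11.10. The distance was 2.68 ± 0.63 log2 units (SD, n = 4, limma adjusted p = 5.4e-14), and all 3 probes lay above the baseline on every array.

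CDKN1A encodes p21, the cyclin-dependent kinase inhibitor through which p53 halts the cell cycle. Its levels were 14.00, 13.82, 13.36 and 13.68 log2 units on replicates 1 to 4, so replicate 3 was the lowest. The distance was 3.61 ± 0.79 log2 units (SD, n = 4, limma adjusted p = 4.3e-24). The gene had 2 targets of 3 probes, at distances of 3.77 ± 0.66 and 3.45 ± 0.97 (SD, n = 4 for each), which overlapped. Of the 6 probes 5 lay above the baseline on every array. The sixth, P01983, read 13.90, 14.00 and 13.83 on replicates 1, 2 and 4 but 9.58 on replicate 3.

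GADD45A encodes a small stress protein that binds PCNA and the kinase CDK1. It read 13.12 and 13.10 log2 units on replicates 1 and 2, and 11.97 and 12.58 on replicates 3 and 4, for a distance of 2.59 ± 1.05 (SD, n = 4, limma adjusted p = 4.1e-13). Its probes disagreed on replicate 3. P00379 was highest there, at 13.32, whereas P00844 read 10.75 against 13.38 to 14.28 elsewhere, and P01294 read 6.15 against 9.29 to 10.35. With the mean of the log2 probe values in place of log2 of the mean, GADD45A lay below the baseline on replicate 3, by 0.31 log2 units, and its mean distance was 1.87. Without P00379 it lay 0.88 below it on that array.

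BBC3, also known as PUMA, PMAIP1, also known as NOXA, and BAX act in the mitochondrial pathway of apoptosis. BBC3 and PMAIP1 are BH3-only proteins, which neutralise the survival proteins of the BCL2 family, and BAX permeabilises the outer mitochondrial membrane. BBC3 read 12.40, 11.32, 11.51 and 11.17 log2 units on replicates 1 to 4, for a distance of 1.50 ± 0.99 (SD, n = 4, limma adjusted p = 2.7e-05). Replicate 1 gave a distance of 2.94, whereas the others gave 0.82 to 1.38. The call rested on 1 probe. P01710 lay above the baseline on every array, while P00702 did so on 3 arrays and P01312 on 2. Without P01710 BBC3 stood at 0.53, below the baseline on replicate 2, and no longer passed the test (limma adjusted p = 0.138).

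PMAIP1 read 13.86, 13.89, 13.71 and 13.28 log2 units on replicates 1 to 4, for a distance of 3.58 ± 0.71 (SD, n = 4, limma adjusted p = 1.1e-23). Those levels differed by no more than 0.61. Its probe P01215 nevertheless read 5.62 on replicate 2, near the lowest value on the array table of 5.14, against 11.68 to 13.27 on the other arrays. Probes were averaged on the linear scale, where a low probe weighs little. With the mean of log2 values PMAIP1 read 11.47 on replicate 2, and its distance there was 1.90 in place of 3.95. Without that probe the distance there was 4.54.

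BAX had 4 targets and 12 probes, every one of them above the baseline on every array. The gene read 13.83, 13.27, 14.00 and 13.52 log2 units on replicates 1 to 4, so that replicates 1 and 3 both lay above replicates 2 and 4. Of all genes 40.7% had no overlap between these pairs, in either direction. The distance was 3.55 ± 0.54 (SD, n = 4, limma adjusted p = 2.3e-23). Its targets stood at 2.92, 3.83, 3.66 and 3.80, and as they stand for transcripts of a single gene they are not independent measurements. In the target at 3.66 replicate 4 lay above replicate 3, at 13.94 against 13.84. No BAX probe ranged over more than 1.21 log2 units across arrays.

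SESN1 and TP53I3 belong to the metabolic and oxidant arm of the p53 response. SESN1 is a sestrin, which restrains the growth kinase complex mTORC1 through the GATOR2 complex. It read 13.26, 13.65, 13.01 and 12.89 log2 units on replicates 1 to 4, for a distance of 3.10 ± 0.76 (SD, n = 4, limma adjusted p = 3.7e-18). Its probe P02126 read 9.52 on replicate 3 against 12.04 to 12.78 on the others. TP53I3, also known as PIG3, is a quinone oxidoreductase. It read 11.61, 11.53, 11.16 and 11.52, a range of only 0.45, for a distance of 1.35 ± 0.70 (SD, n = 4, limma adjusted p = 1.6e-04). Its first target stood at 1.00 ± 1.01 and lay 0.38 below the baseline on replicate 3, while the second stood at 1.70 ± 0.45 (SD, n = 4 for each) and above it on all 4. The probe P00189 of the first target was the only one of the 42 that lay below the baseline on every array, at 7.45 to 8.43 log2 units.

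**Figure D2:**
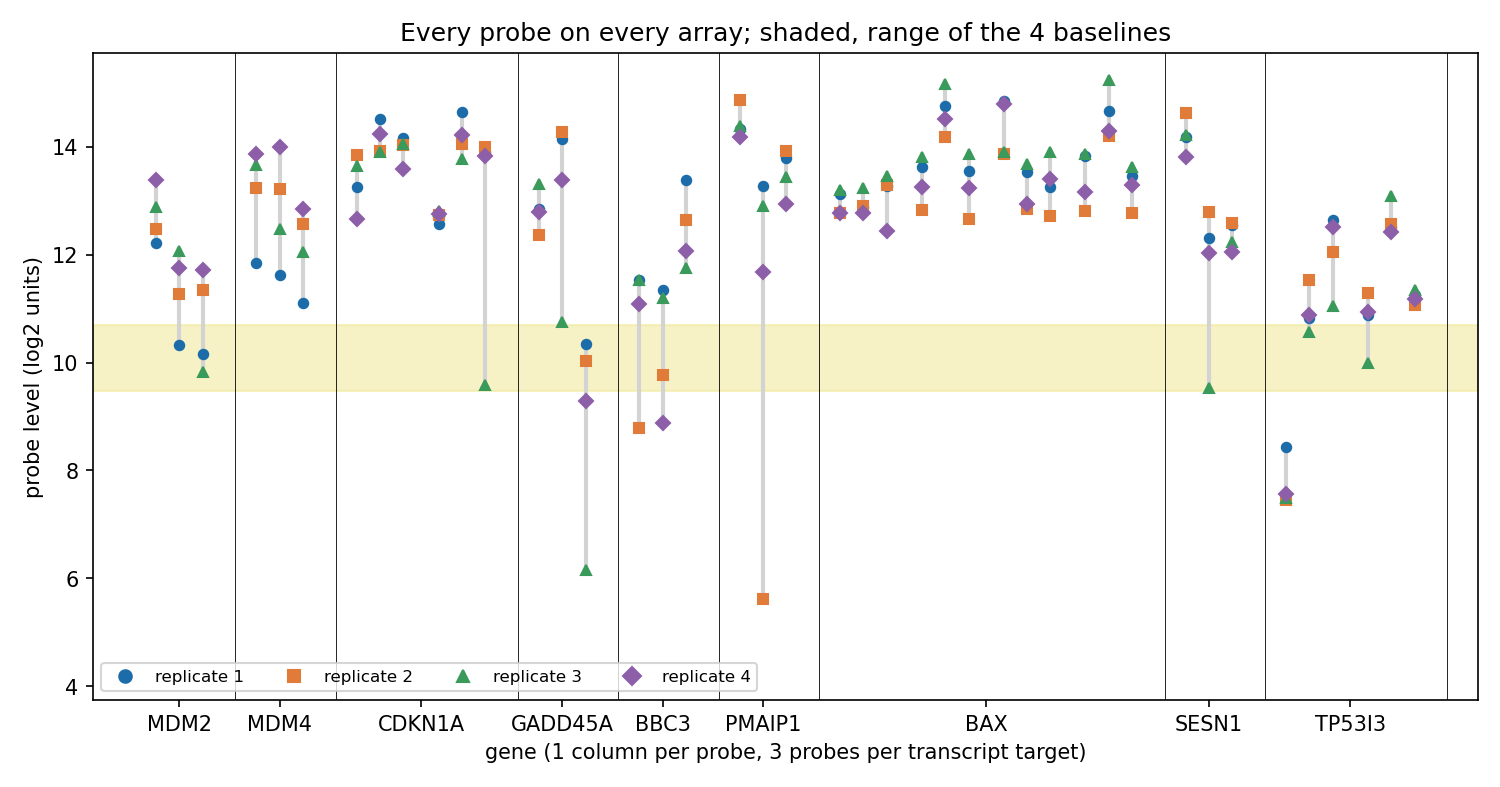
Each column is a probe and each point its log2 level on an array, with the range of the 4 baselines shaded and a grey line from the lowest to the highest array. Of the 42 probes, 32 clear the baseline on all 4 arrays together, a share that was not counted over all probes. Taken singly, replicates 1 to 4 had 41, 38, 35 and 39 of the 42 above it, against 49.4%, 45.5%, 37.8% and 41.3% of all probes. The long grey lines of PMAIP1 on replicate 2 and of CDKN1A and GADD45A on replicate 3 mark the probes that fell on a single array.

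Falls of a single probe on a single array were counted over the whole table, with a threshold chosen after the values had been seen. A fall meant that an array lay more than 3 log2 units below the next lowest. This was so for 523 of 71998 probes (0.726%), and for 3 of the 42 probes here, those of CDKN1A and GADD45A on replicate 3 and that of PMAIP1 on replicate 2. Among the 34064 probes whose other 3 arrays all lay above the lowest baseline the share was 1.42%, and the falls of CDKN1A and PMAIP1 were among them. GADD45A was not. Of the 523 falls, replicates 1 to 4 held 132, 66, 276 and 49. Replicate 3 also had the highest baseline, and the fewest of the 42 probes above it, 35, against 41, 38 and 39 on replicates 1, 2 and 4. The share of all 71998 probes above it was also lowest on replicate 3, at 37.8%, against 49.4%, 45.5% and 41.3% on replicates 1, 2 and 4. Replicates 2 and 4 stood in the opposite order in the 2 counts. The cause of the falls was not tested.

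The arrays were next set against each other in the log2 levels before subtraction. Replicates 1 and 2 both lay above replicates 3 and 4 for CDKN1A, GADD45A, PMAIP1, SESN1 and TP53I3, and both lay below them for MDM2. That made 6 of 9 genes without overlap, against 43.3% of all genes. The split depended in part on how probes were combined. With the mean of log2 probe values PMAIP1 overlapped, at 11.47 on replicate 2 and 13.57 on replicate 3. MDM2 did too, at 11.70 and 11.60, while CDKN1A, GADD45A, SESN1 and TP53I3 still did not. The second target of TP53I3 alone was highest on replicate 3, at 12.00. The same pairs of arrays share a distribution of values, and with all 4 arrays quantile normalized together the count was 4 of 9 (32.3% of all genes), made up of GADD45A and SESN1, higher on replicates 1 and 2, and MDM2 and MDM4, lower. For replicates 1 and 3 against 2 and 4, the split seen in NEFM, BAX and BBC3 were higher on the first pair and MDM4 was lower, 3 of 9 against 40.7% of all genes (with joint normalization BAX and BBC3 alone, 2 of 9 against 47.0%). For replicates 1 and 4 against 2 and 3 all 9 overlapped (16.0% of all genes did not), while with joint normalization CDKN1A and TP53I3 were higher and PMAIP1 lower, 3 of 9 against 20.7%. The part of normalization in these differences was not tested further, and as all 4 samples carry the same label no test was made between pairs.

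The height of the baseline moved every distance. With the mean plus 3 SD, all 9 were still detected (39.1% of all genes) but 6 of 9 passed limma (28.6%), and MDM2, BBC3 and TP53I3 stood at 0.48, 0.18 and 0.03. Among the seminal controls AFG2A, listed by the study as SPATA5, and SPATA13 lay far above the others, at -0.13 and -0.38 where the other 8 lay at -2.85 or lower. Without this pair all 9 were detected (74.0% of all genes), with TP53I3 lowest at 3.68, and with the olfactory receptor genes as controls all 9 were detected as well (71.4%).

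**Figure D3:**
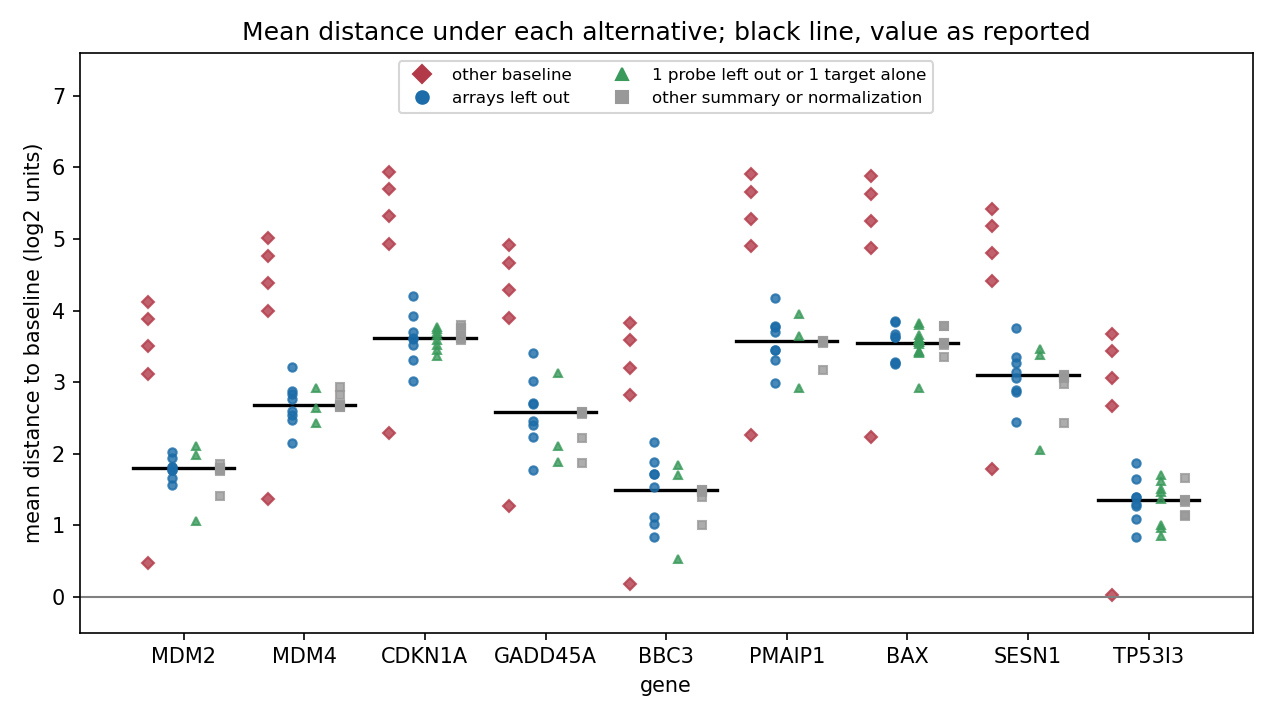
For each gene the black line is the mean distance as reported (log2 units), and each point the same value under another baseline (red), with arrays left out (blue), with a probe left out or a target alone (green), or with another summary or normalization (grey). No point lies below 0, and the lowest red point of each gene is that of the mean plus 3 SD, which brings TP53I3 to 0.03.

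Other genes around p53 were taken from lists written from general knowledge of the pathway, with earlier results of these data known. Of 53 further p53 targets on the array, 38 were detected, 34 stood clear of the baseline on each array, and 33 passed limma. Their median distance was 1.53 log2 units. Over all genes 52.7% were detected, 45.0% lay above the baseline on each array and 45.9% passed limma, with a median of 0.26. Of the targets in DNA repair and nucleotide supply, 4 of 4 were detected. They were DDB2 and XPC, which recognise ultraviolet damage, at 2.92 ± 0.49 and 2.00 ± 0.51, the ribonucleotide reductase subunit RRM2B at 1.56 ± 0.92 and the polymerase POLH at 1.02 ± 0.20 (SD, n = 4 for each). Of targets linked to the cell cycle and listed under arrest, 5 of 6 were detected and 4 passed limma. The cyclin CCNG1 stood at 4.74 ± 0.56, the antiproliferative gene BTG2 at 2.29 ± 0.40, the kinase PLK2 at 1.95 ± 0.60 and SERTAD1 at 1.12 ± 0.47 (SD, n = 4 for each). SFN stood at 0.51 (limma adjusted p = 0.156), and PLK3 lay at -0.58.

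Of 15 targets linked to cell death, 11 were detected and 10 passed limma (52.7% and 45.9% of all genes). The membrane protein PERP stood at 3.73 ± 0.99, the TRAIL receptor TNFRSF10B at 3.11 ± 0.62 and the nuclease AEN at 2.24 ± 0.51 (SD, n = 4 for each). TP53AIP1 and the decoy receptor TNFRSF10C lay below the baseline on all 4 arrays, the latter at -0.77. PIDD1 lay at -1.21 and TP53INP1 at -0.55, the last named after its value was seen. Of feedback genes the ubiquitin ligase COP1 and the phosphatase PPM1D were detected, at 3.58 ± 0.68 and 3.43 ± 0.54 (SD, n = 4 for each), and PHLDA3 was not, at -0.40. With the median of log2 probe values PPM1D stood at only 0.21 and did not pass the test (limma adjusted p = 0.602).

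In the metabolic list 10 of 13 were detected and 8 passed limma (52.7% and 45.9% of all genes). The list was led by the AMP-activated kinase subunit PRKAB1 at 3.55, the iron-sulphur scaffold ISCU at 3.12 and the metalloreductase STEAP3 at 2.81. DRAM1 lay at -2.31 and SPATA18 at -1.84. The ferredoxin reductase FDXR lay at -0.05, with distances of 0.44, 0.55, -1.22 and 0.02 on replicates 1 to 4. Without replicate 3 it stood at 0.34 (limma adjusted p = 0.364), and without replicates 1, 2 or 4 in turn at -0.22, -0.25 and -0.08. Of 12 remaining targets 6 were detected and 5 passed limma, near the shares of all genes (52.7% and 45.9%). The phosphatase PTP4A1 stood at 3.74, IER5 at 3.16 and TRIAP1 at 2.27, while the secreted protein GDF15 lay at -2.47 and the ribosomal protein RPS27L at -2.18, both below the baseline on every array. RCHY1 and CYFIP2 had no matched accession.

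**Figure D4:**
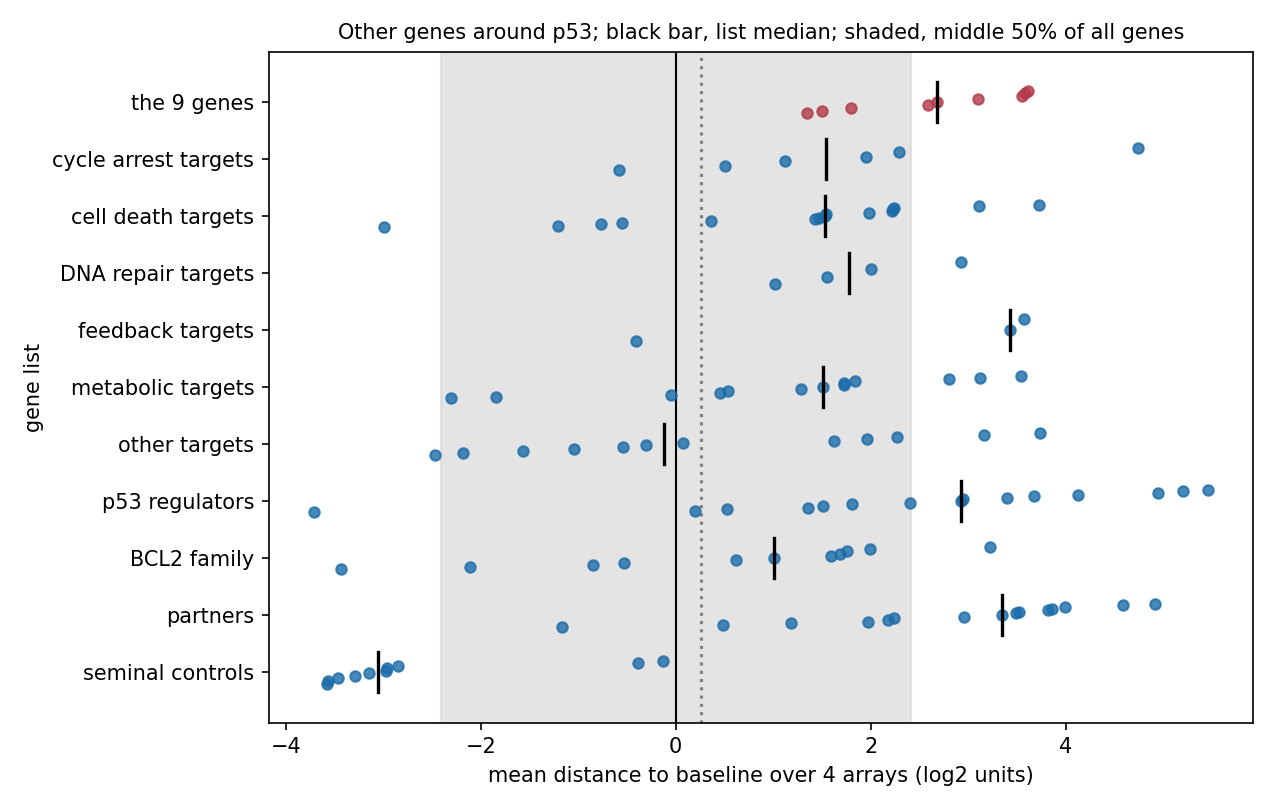
Each point is a gene's mean distance to the baseline over 4 arrays (log2 units), by list, with the list median as a black bar, the middle 50% of all genes shaded from -2.40 to 2.41 and their median dotted at 0.26. The 9 genes, in red, lie between 1.35 and 3.61, while the other p53 targets reach up to 4.74 and spread on both sides of the baseline.

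Close relatives of the 9 were on the array too, and 8 of 9 were detected but only 5 passed limma (52.7% and 45.9% of all genes). GADD45B stood at 3.33 ± 0.46 and GADD45G at 0.58 ± 0.50, with limma adjusted p = 0.102 for the latter. The other sestrins SESN2 and SESN3 stood at 1.51 ± 0.74 and 1.96 ± 0.18 log2 units (SD, n = 4 for each). Of the other inhibitors in the family of CDKN1A, CDKN1C lay 3.62 below the baseline, and CDKN1B stood at 0.65 ± 1.18 (SD, n = 4, limma adjusted p = 0.0685). Replicate 1 gave 2.36 and the others between -0.37 and 0.38. Without replicate 1 CDKN1B stood at 0.08, while with the mean of log2 probe values it lay at -0.67. BAK1, which permeabilises the mitochondrial membrane as BAX does, stood at 2.45 ± 0.46 (SD, n = 4), BOK at 0.36 (limma adjusted p = 0.315) and CRYZ, a quinone reductase like TP53I3, at 2.77 ± 0.79 (SD, n = 4).

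Of 11 further genes of the BCL2 family 7 were detected and 6 passed limma (52.7% and 45.9% of all genes). Among survival proteins MCL1, to which the PMAIP1 protein binds, stood at 3.22 ± 0.80 and BCL2L2 at 1.69 ± 0.46 (SD, n = 4 for each). BCL2L1 stood at 1.59 ± 1.30 (SD, n = 4) but below the baseline on 1 array. With the mean and the median of log2 probe values BCL2L1 stood at 0.59 and 0.57 (limma adjusted p = 0.118 and 0.411). BCL2 lay at -0.53 and BCL2A1 at -2.12. Of the other BH3-only genes BID stood at 1.99 and HRK at 1.76, and BAD and BIK lay at -0.85 and -3.43. BMF stood at 1.01, but without replicate 1 at 0.59 (limma adjusted p = 0.105) and with the mean of log2 probe values at 0.16 (limma adjusted p = 0.652). BCL2L11 stood at 0.62 (limma adjusted p = 0.0849). The targets of BAD and of BCL2L11 disagreed, and the highest of each stood at 1.74 and 2.00 (limma adjusted p = 4.0e-08 for BCL2L11).

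Of 15 regulators or relatives of p53, 14 were detected and 12 passed limma (52.7% and 45.9% of all genes). They were led by the ribosomal proteins RPL11 at 5.46 and RPL5 at 5.21, which bind MDM2, and by USP7 at 4.95, the deubiquitinase that acts on MDM2 and p53. Neither TP73, at 0.53 ± 0.91 (SD, n = 4), nor the kinase HIPK2, at 0.19, passed the test (limma adjusted p = 0.138 and 0.573), though TP73 did without replicate 2, at 0.96 (limma adjusted p = 0.0339). On replicates 1 and 2 alone TP73 lay at -0.11, and on replicates 3 and 4 alone it stood at 1.17. TP63 lay at -3.72. Of 15 partners through which the 9 proteins act, 14 were detected and 13 passed limma, against the same shares of all genes. CDK2, a target of p21, stood at 4.92, PCNA, which binds both p21 and GADD45A, at 4.58 and CCNB1 at 4.00. Downstream of BAX, CASP9 stood at 1.18 and cytochrome c, CYCS, at 0.49 (limma adjusted p = 0.172, or 0.76 and 0.0471 without replicate 3), and the GATOR2 subunit WDR24 lay at -1.17. CYCS stood at 0.98 on replicates 1 and 2 alone and at -0.0037 on replicates 3 and 4 alone.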

How the data were processed

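RNA from 4 HEK293 cultures, all of 1 group, was hybridised in 1 colour (Cy3) to NimbleGen arrays designed on HG18. The authors deposited 1 log2 value per probe. Per the study's methods, images were read with NimbleScan 2.4, and the submitters' processing notes name RMA. After sorting, replicates 1 and 2 matched to 0.01 log2 units at 99.97% of ranks, replicates 3 and 4 at 99.99%, and the remaining pairs at 1.22% to 1.25%, the form that separate quantile normalization of these pairs gives. Spot background and saturation were not examined, and the number of arrays limits precision.

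Probe accessions were matched, without versions, to RefSeq names (GRCh38.p14), which named 19122 of 24000 targets. Linear probe values were averaged within a target and put back on the log2 scale, and targets were averaged within a gene. The baseline was the study's, with PYY2 of its 11 controls unmatched. Distances were tested one-sided with limma 3.58 in R 4.3 over 17214 genes, with Benjamini-Hochberg adjustment. The prior degrees of freedom were infinite, so all genes shared a standard error of 0.351. The baseline is common to all genes of an array, so distances of different genes are not independent. With 4 arrays the smallest exact sign-flip p is 0.0625. The members and lists were chosen with earlier results of these data known. Named were the 9 genes, their relatives and the BCL2 genes, and the 3 highest and 3 lowest of each other list, of which 1 is not reported here. Alternatives covered baseline, controls, probe summary, normalization, test settings and arrays left out, and, chosen after seeing the data, each probe left out.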

Additional observations from a re-analysis of the deposited data

Results flagged for a closer look

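Levels and distances of the 9 genes, levels of their 42 probes and the baseline made 61 measures. In 4 of them the gap between an extreme array and its nearest neighbour, as a share of the range, exceeded Dixon's critical value for 4 samples, which chance does in about 1 of 20. For BAX this was the distance, 4.36 on replicate 1 with the rest at 3.20 to 3.33 (share 0.886), while the level of BAX before subtraction did not exceed it and replicate 1 had the lowest baseline. For CDKN1A it was probe P01983, 9.58 on replicate 3 with the rest at 13.83 to 14.00 (share 0.961). For BBC3 it was probe P00702, 8.79 on replicate 2 with the rest at 11.08 to 11.54 (share 0.834). For TP53I3 it was probe P00189, 8.43 on replicate 1 with the rest at 7.45 to 7.57 (share 0.875). The causes were not tested.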

How the results depend on the processing

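Of the values of the 9 genes under the alternatives run, 216 gave the same direction and the same call, 5 lost significance and none changed sign. With the control mean plus 3 SD as baseline, at 11.42 in place of 10.10 log2 units, BBC3 stood at 0.181, MDM2 at 0.477 and TP53I3 at 0.0311 (limma adjusted p = 0.864, 0.318 and 1.0). On replicates 1 and 3 alone TP53I3 stood at 1.30 (limma adjusted p = 0.0501, cause not tested), and without its probe P01710 BBC3 stood at 0.53 (limma adjusted p = 0.138). Arrays left out in turn moved TP53I3 between 1.09 and 1.64, BBC3 between 1.02 and 1.72, GADD45A between 2.23 and 3.02, MDM4 between 2.47 and 2.88, and every one of the 9 passed limma each time. Of the counts, 326 stayed within 1.5 times of the reported value and 7 did not. With 3 SD, arrest targets fell to 3 of 6 and close relatives to 5 of 9 (39.1% of all genes). Relatives passing limma numbered 5 with either prior (45.9% of all genes with the reported one). The 12 remaining targets gave 11 without SPATA5 and SPATA13 (74.0% of all genes) and 10 with olfactory receptor controls (71.4%). They gave 10 with the median and scaled MAD, for which the share of all genes is not given here. Of genes named from the other lists, those that passed limma and changed sign were BMF, to -0.88 with the median of probes, and with 3 SD BMF (-0.31), CASP9 (-0.14), POLH (-0.30) and SERTAD1 (-0.20). Counting those that had not passed, 13 changed sign with 3 SD and 18 without SPATA5 and SPATA13, among them BCL2 (to 1.80). Over all alternatives 1583 of their values kept direction and call, 86 moved, 51 gained significance, 23 lost it and 5 reversed. No paired analysis was possible because the design holds 1 group.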
